A study of Homo sapiens with 6 samples.

Results

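Elongation factors and other 5′ terminal oligopyrimidine messages, in brief TOP messages, were followed through a ribosome profiling experiment in HEK293T, an established human embryonic kidney line transformed with adenovirus DNA and expressing SV40 large T antigen. The set was a given list of 10 genes, not chosen by a threshold on measured values: EEF1A1, EEF1B2, EEF1D, EEF1G, EEF2, TPT1, RACK1, NAP1L1, BTF3 and NACA. They were found by mapping the Ensembl gene identifiers to symbols, and all 10 were present among 60420 genes. Every one passed the filter on low values, a mean of at least 5 TPM (a share of the library scaled by transcript length) over the 6 libraries.

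Cells received DMSO, the vehicle, or a compound that the labels name only as a PRMT1 inhibitor or a PRMT4 inhibitor; PRMT4 is also called CARM1. Neither dose nor duration is given. For each of the 3 treatments there was 1 input library, read here as RNA level, and 1 library of footprints, the fragments that ribosomes protect from RNase. Libraries are named PRMT1i and PRMT4i after their labels, and 3 values in a row are always in the order DMSO, PRMT1i, PRMT4i. With 1 library per group there was no replicate error, so no test was possible, and every difference below describes these libraries alone. In bulk libraries, a change in RNA per cell and a change in the make-up of the culture cannot be told apart.

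A TOP message begins with a cytosine followed by an unbroken run of pyrimidines. This start is read by the RNA-binding protein LARP1 and couples the translation of the message to the growth kinase mTORC1: when mTORC1 is inactive, TOP messages leave polysomes together. Nearly all messages for ribosomal proteins are of this class, and so are those for several elongation factors and for several other proteins that work at the ribosome. PRMT1 and PRMT4 place asymmetric dimethyl marks on arginines of many RNA-binding proteins.

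The starts of the messages are shown because they are what defines the class. RefSeq starts (build GRCh38.p14) were matched by symbol for 9 of the 10 genes, and for each the 10 bases before the start and the 20 bases from it are given, 5′ to 3′ on the gene's strand. Capitals mark the pyrimidine tract at the start, or the first tract after it where the start is a purine.
EEF1A1, chr6:73521013-73521042, minus strand: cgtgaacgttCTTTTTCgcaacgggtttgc
EEF1B2, chr2:206159885-206159914, plus strand: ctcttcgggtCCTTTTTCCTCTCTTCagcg
EEF1G, chr11:62573872-62573901, minus strand: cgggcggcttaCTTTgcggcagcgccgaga
EEF2, chr19:3985444-3985473, minus strand: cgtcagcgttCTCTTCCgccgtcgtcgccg
TPT1, chr13:45341164-45341193, minus strand: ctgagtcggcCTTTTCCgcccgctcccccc
RACK1, chr5:181243887-181243916, minus strand: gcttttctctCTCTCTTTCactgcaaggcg
NACA, chr12:56725280-56725309, minus strand: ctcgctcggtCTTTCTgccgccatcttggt
BTF3, chr5:73498432-73498461, plus strand: cttccggcctCCCTTTagctgccatcttgc
NAP1L1, chr12:76084666-76084695, minus strand: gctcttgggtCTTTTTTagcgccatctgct

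A start tract was counted where the annotated first base was C and at least 4 further pyrimidines (C or T) followed without a break, read on the gene's own strand. It was present at a start of 8 of the 9 matched genes, against 5.14% of 27305 genes in the table of starts and 8.33% of 6735 tested protein-coding genes. The ninth gene, EEF1G, had its annotated start on a purine, followed by a tract of 4 bases. EEF1B2 had the longest tract, 16 bases, at the second of its 2 annotated starts, while the first lacked one. The other 7 had tracts of 6 to 9 bases. Ribosomal protein genes carried the same start in 28 of 38 matched genes of the large subunit and in 19 of 25 of the small subunit. None of 13 other elongation, termination and recycling factors carried it, and 1 of 12 other factors that act on the nascent chain did. EEF1D is named without a start sequence.

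Together the 10 messages held 1.43%, 1.31% and 1.2% of all TPM in the inputs. In the footprints they held 1.81%, 1.68% and 1.71%. These shares moved with the make-up of the libraries, since protein-coding genes held 45.7%, 38.7% and 33.4% of the inputs and 74.3%, 62.3% and 70.6% of the footprints. As a share of protein-coding TPM, the 10 held 3.13%, 3.37% and 3.60% in input and 2.44%, 2.70% and 2.42% in footprints. Their share of the whole input was thus lowest in PRMT4i, where their share among coding messages was highest.

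Because the libraries differed in make-up, ratios were taken as log2((TPM + 1)/(TPM + 1)) and centred on the median of 9040 tested genes. Before centring, that median was -0.16 and -0.37 for the PRMT1i and PRMT4i inputs, -0.15 and -0.01 for the footprints, and 0.02 and 0.37 for translation efficiency, which is footprints divided by the same label's input. The labels of the inhibitor libraries carry a further limit: whether they were exchanged in 1 fraction was not tested. Over the tested genes, the PRMT1i footprint ratios correlated at r = 0.45 with the PRMT4i input ratios and at r = 0.26 with those of their own label. The PRMT4i footprint ratios correlated at r = 0.32 with the PRMT1i input and at r = 0.21 with their own. Among 8117 tested protein-coding genes, PRMT1i footprints had r = 0.56 with the PRMT4i input and 0.36 with their own. There the PRMT4i footprints had r = 0.46 with the PRMT1i input and 0.20 with their own. These correlations are over genes, which are not independent, and each pair being compared shares a footprint library. Translation efficiency of the 10 genes is therefore given with the input of the same label and also with the input of the other inhibitor label. All these values share the DMSO libraries, so the exchange is not an independent check. For a given footprint library, the change between pairings reflects the input ratios alone. Of 8 marker genes listed for HEK293T, 6 were above 1 TPM in every input, among them KRT18 at 37.4, 31.5 and 32 TPM, while PAX2 and NEFM stayed below 1 TPM there. The leukocyte markers PTPRC and CD3E, the hepatocyte gene ALB and the endothelial VWF did not exceed 0.07 TPM in any library. The fifth marker of other cells, the collagen gene COL1A1 of fibroblasts, stood at 3.26, 2 and 1.97 TPM in input and 3.82, 2.24 and 2.83 TPM in footprints.

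EEF1A1 (ENSG00000156508.17_3) encodes eEF1A, the GTPase that delivers aminoacyl-tRNA to the ribosome. It stood at 4573, 4581 and 3758 TPM in input and had footprints of 3870, 3457 and 3621 TPM. It ranked 3rd, 1st and 2nd among protein-coding genes in the inputs, and between rank 17 and rank 18 in the footprints. Both footprint values under inhibitor labels were lower than in DMSO, and the centred ratios were -0.02 and -0.09. Translation efficiency was lower under both labels, at -0.18 and -0.18, or -0.12 and -0.26 with the input of the other label. Without centring the value in PRMT4i was 0.19, the opposite direction.

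The value of EEF1A1 is uncertain, because it has many processed copies in the genome. The table lists 49 of them, of which only EEF1A1P5 reached 5 TPM. EEF1A1P5 stood at 449, 348 and 697 TPM in input, with 692, 443 and 752 TPM in footprints. Among the inputs, PRMT4i thus had the highest TPM of the copy and the lowest of EEF1A1, whose centred ratio there was 0.08. Whether reads were exchanged between this pair was not tested. With all copies added, the input ratio in PRMT4i went from 0.08 to 0.19, and the input ratio of PRMT1i over PRMT4i from 0.10 to -0.04, the opposite sign. For the other 9 genes the copies summed to at most 2.95% of the parent.

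EEF2 (ENSG00000167658.15_2), the GTPase that moves the ribosome along by one codon, stood at 2740, 2293 and 2712 TPM in input. Its footprints were 1765, 1522 and 1588 TPM. The PRMT4i input was close to DMSO in TPM while the median gene was lower there, which gave a centred ratio of 0.35, against -0.10 in PRMT1i. Without centring the first of these was -0.01, so its direction rests on the scale. Translation efficiency was -0.51 in PRMT4i, the lowest value of any of the 10 genes, and 0.03 in PRMT1i. With the inputs exchanged between the inhibitor labels it was -0.06 for the PRMT4i footprints and -0.44 for those of PRMT1i, so the low value came with the PRMT4i input under both footprint libraries.

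The subunits of eEF1B, the exchange factor that reloads eEF1A with GTP, did not move as one. EEF1B2 (ENSG00000114942.13_2), a catalytic subunit, stood at 385, 389 and 320 TPM in input, with 464, 464 and 529 TPM in footprints. EEF1D (ENSG00000104529.17_4), the other catalytic subunit, stood at 357, 317 and 322 TPM in input, with 878, 677 and 744 TPM in footprints. EEF1G (ENSG00000254772.9_3), the scaffold subunit, stood at 1082, 998 and 1007 TPM in input, with 667, 488 and 612 TPM in footprints. EEF1D and EEF1G footprints were thus highest in DMSO, while those of EEF1B2 were highest in PRMT4i.

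On the centred scale, the footprint ratios of EEF1B2 were 0.15 in PRMT1i and 0.20 in PRMT4i. Those of EEF1D were -0.23 and -0.23, and those of EEF1G -0.31 and -0.12. In translation efficiency EEF1D was at -0.22 and -0.46, EEF1G at -0.35 and -0.39, and EEF1B2 at -0.03 and 0.08. With the input of the other label, EEF1D was at -0.46 and -0.23, EEF1G at -0.58 and -0.17, and EEF1B2 at 0.03 and 0.02. EEF1D and EEF1G stayed below 0 in either pairing, but every pairing uses the same DMSO libraries. For each footprint library the lower value came with the PRMT4i input, which follows from the higher input ratios there. These input ratios were -0.01 in PRMT1i and 0.22 in PRMT4i for EEF1D, and 0.04 and 0.26 for EEF1G.

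A ratio of 2 genes within 1 library does not depend on the scale of that library. EEF1G over EEF1B2 was 2.81, 2.57 and 3.14 in input, but 1.44, 1.05 and 1.16 in the footprints. EEF1D over EEF1B2 was 0.93, 0.82 and 1.01 in the inputs and 1.89, 1.46 and 1.41 in the footprints. Per unit of length, the footprints of EEF1D and EEF1G were thus each nearer to those of EEF1B2 under both inhibitor labels than in DMSO. EEF1D over EEF1G did not follow this, at 1.32, 1.39 and 1.22 in the footprints. EEF1A1 over EEF1B2 fell within 11.7 to 11.9 in the inputs and was 8.35, 7.45 and 6.85 in the footprints.

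**Figure D1:**
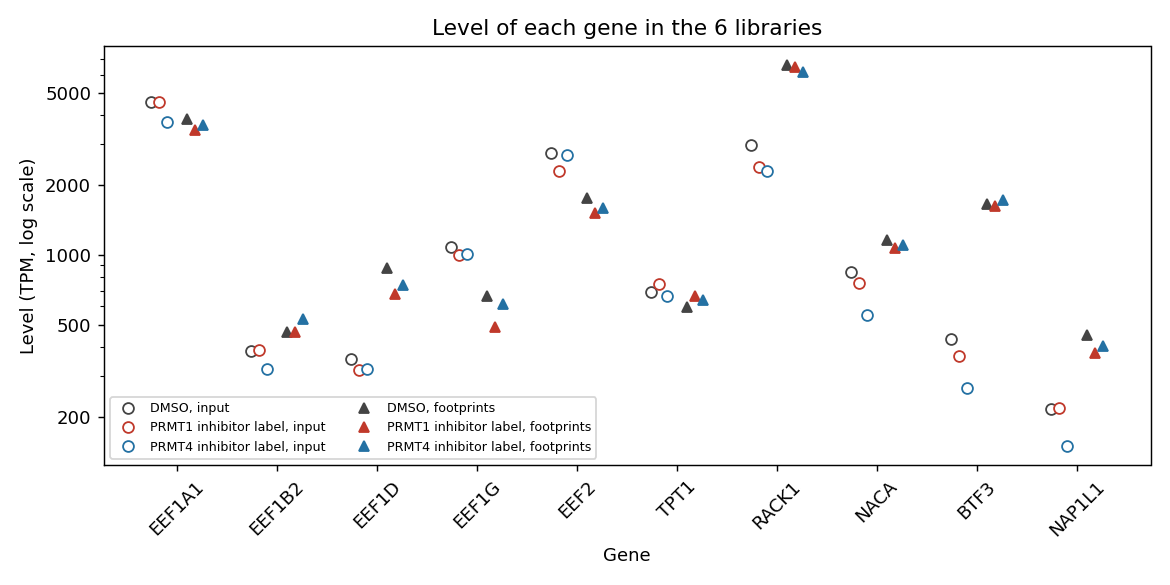
Level of each of the 10 genes in TPM on a log scale, with input libraries as open circles and footprint libraries as filled triangles, coloured by treatment label; each symbol is 1 library. RACK1 and BTF3, among others, have footprints above input in all 3 treatments, and EEF2 and EEF1G, among others, have them below. All genes but EEF1D, EEF1G and EEF2 have their lowest input in PRMT4i, where the median tested gene is also lower than in DMSO.

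RACK1 (ENSG00000204628.11_3), a scaffold protein of the small ribosomal subunit, gave the highest footprint level of the 10, at 6602, 6466 and 6142 TPM. Its inputs were 2988, 2384 and 2296 TPM. It ranked 5th or 6th among protein-coding genes in all 6 libraries. Both inhibitor inputs were lower than DMSO, and the centred input ratios were -0.17 and -0.01. Translation efficiency was 0.28 in PRMT1i and -0.10 in PRMT4i, or 0.11 and 0.06 with the input of the other label.

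NACA and BTF3 encode the alpha and beta subunits of the nascent polypeptide-associated complex, which binds chains as they leave the ribosome. NACA (ENSG00000196531.10_3) stood at 840, 756 and 552 TPM in input, with footprints of 1155, 1075 and 1107 TPM. BTF3 (ENSG00000145741.15_2) stood at 433, 367 and 267 TPM in input, with 1656, 1624 and 1724 TPM in footprints. Both messages were thus lowest in the PRMT4i input, while their footprints differed little from DMSO. The centred input ratios under that label were -0.24 for NACA and -0.33 for BTF3, and the footprint ratios -0.06 and 0.06.

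Translation efficiency of BTF3 was 0.19 in PRMT1i and 0.38 in PRMT4i. With the input of the other label it was 0.43 and 0.13, so the higher value came with the PRMT4i input. NACA was at 0.03 and 0.17, or 0.27 and -0.07 with the inputs exchanged. The ratio of BTF3 over NACA hardly differed between treatments: it was 0.52, 0.49 and 0.48 in the inputs and 1.43, 1.51 and 1.56 in the footprints. The message of the beta subunit was the less abundant of the pair in input and the more abundant in footprints in every treatment.

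TPT1 (ENSG00000133112.16_2), which encodes the growth-related protein TCTP, stood at 694, 752 and 664 TPM in input, with 593, 665 and 641 TPM in footprints. Its footprints were higher than in DMSO under both inhibitor labels. Its centred ratios were 0.27 and 0.30 in input and 0.31 and 0.12 in footprints. Its translation efficiency was 0.03 and -0.19, or -0.01 and -0.16 with the input of the other label. Without centring the PRMT4i value was 0.18, the opposite direction. NAP1L1 (ENSG00000187109.13_3), a chaperone for histones H2A and H2B, stood at 216, 218 and 150 TPM in input, with 450, 377 and 402 TPM in footprints. Its input ratios had opposite signs, 0.18 in PRMT1i and -0.16 in PRMT4i, and both footprint values were below DMSO, at -0.11 and -0.16. Translation efficiency of NAP1L1 was -0.29 and -0.01, or 0.03 and -0.34 with the input of the other label. Without centring its PRMT4i value was 0.36.

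Levels differed far more between genes than between treatments. In the DMSO input the order ran from EEF1A1, RACK1 and EEF2 through EEF1G, NACA, TPT1, BTF3, EEF1B2 and EEF1D to NAP1L1. In the DMSO footprints it ran from RACK1, EEF1A1, EEF2 and BTF3 through NACA, EEF1D, EEF1G, TPT1 and EEF1B2 to NAP1L1. With 1 library per group, neighbours in these orders cannot be separated from the error of a single library. Neighbours such as EEF1B2 and EEF1D in the inputs, and EEF2 and BTF3 in the footprints, changed places between treatments.

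The footprint level over the input level, which stands for ribosome loading, covered a wide range within the class. In DMSO it was highest for BTF3, at 1.85 on the centred log2 scale, followed by EEF1D (1.21), RACK1 (1.06), NAP1L1 (0.97), NACA (0.37) and EEF1B2 (0.18). TPT1 (-0.31), EEF1A1 (-0.33), EEF2 (-0.72) and EEF1G (-0.78) lay below the median gene. Past 0.32 on this scale in either direction, the step counted throughout, 5 of the 10 were higher and 3 lower, where 37.2% and 38.1% of all tested genes were. EEF1A1 was past this step narrowly, and stood at -0.23 with its processed copies added and at -0.24 without centring. BTF3 was at percentile 95.3 of the tested genes and EEF1G at percentile 24.4. EEF1G, the gene without an annotated start tract, and EEF2, which has a tract of 7 bases, were close to each other. TPM divides by the length of the whole transcript while footprints lie in its coding part, so these levels also depend on how much of a transcript is untranslated; that part was not tested.

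The order changed little with treatment. In PRMT1i BTF3 was at 2.03, RACK1 at 1.33 and EEF1D at 0.98, with EEF2 at -0.70 and EEF1G at -1.14 at the low end. In PRMT4i BTF3 was at 2.22, NAP1L1 at 0.96 and RACK1 at 0.95, with EEF1G at -1.18 and EEF2 at -1.24. The distance from BTF3 to the lowest gene was thus wider under both labels than in DMSO. The median of the 10 was 0.28 in DMSO, 0.27 in PRMT1i and 0.40 in PRMT4i. The sign of the DMSO median depended on which genes set the centre: it was -0.14 with a minimum of 20 TPM and -0.34 after rescaling to nuclear protein-coding genes, and NACA was then at -0.04 and -0.24.

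**Figure D2:**
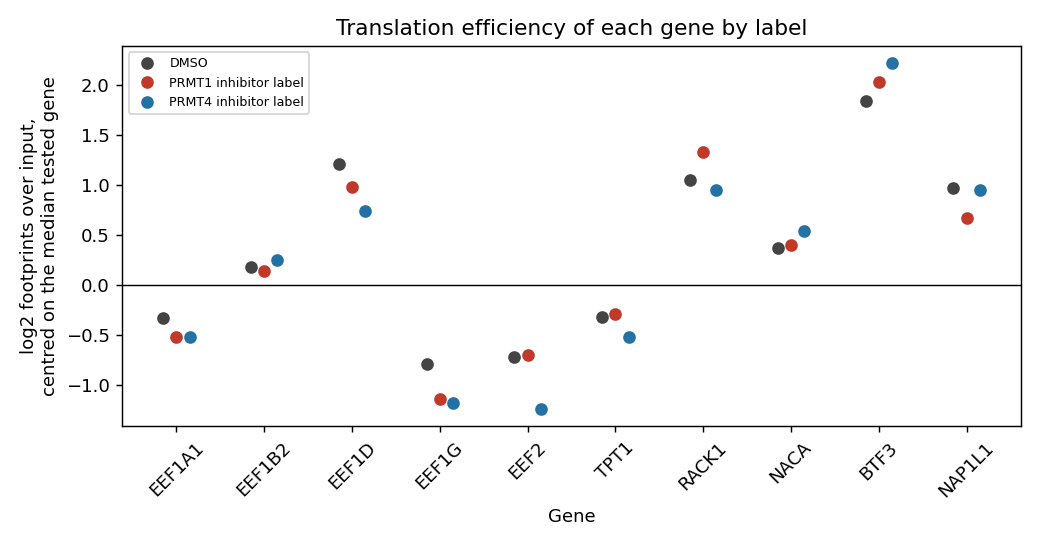
Translation efficiency of each of the 10 genes as log2 footprints over input, centred on the median of all tested genes, with 1 point per treatment label. BTF3 lies highest in all 3, from 1.85 to 2.22, and EEF1G and EEF2 lie lowest, from -1.24 to -0.70.

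The PRMT1i input was compared with DMSO to ask whether the RNA level of the class differed. The centred ratios ran from -0.17 for RACK1 to 0.27 for TPT1, with a median of 0.02. None of the 10 was past 0.32 in either direction, where 7.54% of tested genes were higher and 6.74% lower. In PRMT4i the ratios ran from -0.33 to 0.35, with a median of 0.09. EEF2 was past 0.32 above and BTF3 past it below, and 17.2% and 15.1% of tested genes were past it in these directions. These counts of 1 in 10 lie near the background, and the BTF3 ratio was -0.24 with a minimum of 20 TPM, short of that step. Without centring the input medians of the 10 were -0.13 and -0.27, below 0 like the median of all tested genes.

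The centred footprint ratios in PRMT1i ran from -0.31 for EEF1G to 0.31 for TPT1, with a median of 0.01. None of the 10 was past 0.32, where 21.3% of tested genes were higher and 16.3% lower by that much. The 10 had means of 302 TPM or more, while tested genes began at a mean of 5 TPM. No background of like level was taken. That count of 0 rests on the scale: without centring EEF1D was at -0.37 and EEF1G at -0.45, EEF1G was at -0.34 with a pseudocount of 5 and at -0.37 with a minimum of 1 TPM, and TPT1 was at 0.40 with a minimum of 20 TPM, at 0.33 with a centre of protein-coding genes and at 0.42 after rescaling to them. In PRMT4i they ran from -0.23 for EEF1D to 0.20 for EEF1B2, with a median of -0.09, and again none was past 0.32, against 10.7% and 9.72%. Since both comparisons use the same DMSO libraries, likeness between the 2 labels is not a result.

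**Figure D3:**
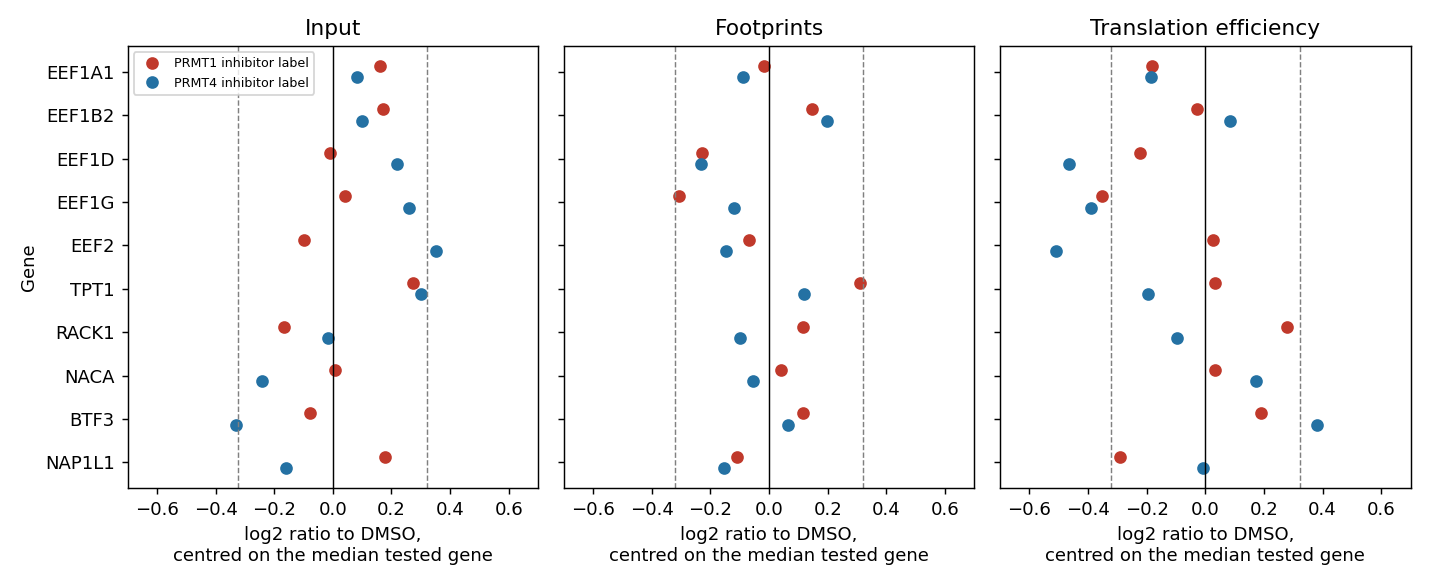
Centred log2 ratio to DMSO for each of the 10 genes in input, footprints and translation efficiency, with 1 point per inhibitor label; dashed lines mark 0.32 in either direction. In the footprint panel all points lie between the dashed lines, and in the efficiency panel EEF1D, EEF1G and EEF2 lie past the lower line in PRMT4i, at -0.46, -0.39 and -0.51. With exchanged inputs these were at -0.23, -0.17 and -0.06, and without centring at -0.09, -0.02 and -0.14, none past 0.32.

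Translation efficiency in PRMT1i had a median of -0.00 over the 10. Only EEF1G, at -0.35, was past 0.32 below, and none was past it above, where 15.5% and 19.5% of tested genes were. With a minimum of 20 TPM, EEF1G was at -0.31, short of the step, and RACK1 at 0.33, past it. In PRMT4i the median was -0.14, with 7 of 10 below 0; without centring it was 0.23, with 7 of 10 above 0. EEF1D, EEF1G and EEF2 were past 0.32 below and BTF3 past it above, against 20.2% and 17.1% of tested genes. The 3 lower values were all above -0.15 without centring, at -0.09 for EEF1D, -0.02 for EEF1G and -0.14 for EEF2, and that of BTF3 was then 0.75. With the inputs exchanged, 1 of the 10 was past 0.32 below for PRMT4i footprints, NAP1L1 at -0.34. For PRMT1i footprints 3 were past it below (EEF1D, EEF1G and EEF2) and BTF3 above. With exchanged inputs, 15.3% of tested genes were past it below and 16.5% above for PRMT1i footprints, and 10.3% and 8.73% for PRMT4i footprints.

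Set against each other, the inhibitor libraries share no control. In input, EEF2 was lower in PRMT1i than in PRMT4i (-0.43) and NAP1L1 was higher (0.36), while 15.5% of tested genes were lower by at least 0.32 and 16% higher. EEF2 was at -0.24 without centring, and NAP1L1 at 0.315 with a minimum of 20 TPM, both short of the step counted. In footprints the ratios ran from -0.18 for EEF1G to 0.22 for RACK1, with 8 of 10 above 0 and a median of 0.07, and none was past 0.32, against 18.3% higher and 12.9% lower. Without centring 2 of the 10 were above 0 and the median was -0.08.

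In translation efficiency, the other messages of the TOP class, from lists chosen with earlier results known, had centred medians from -0.04 to 0.12. Those of the 10 genes were -0.00 in PRMT1i and -0.14 in PRMT4i. The centre subtracted with inputs of the same label was 0.02 in PRMT1i and 0.37 in PRMT4i, so the signs depend on it. Among 47 large subunit ribosomal proteins the median translation efficiency was -0.03 in PRMT1i and 0.05 in PRMT4i. Among 32 small subunit proteins it was 0.03 and 0.12. Among 12 other reported TOP messages it was 0.04 and -0.04. With the input of the other label the 3 medians were -0.02, 0.07 and 0.04 in PRMT1i and 0.01, 0.09 and -0.04 in PRMT4i. The spread within each list was wide: in PRMT4i the large subunit ran from RPLP1 at -0.65 to RPL36A at 0.77, and the other TOP messages from the initiation factor subunit EIF3F at -0.43 to the splicing repressor HNRNPA1 at 0.52. EIF3E, another subunit of initiation factor eIF3, was at 0.42 under that label. With the inputs exchanged these were at -0.52 for RPLP1, 0.09 for RPL36A, -0.22 for EIF3F, 0.21 for HNRNPA1 and -0.06 for EIF3E. Footprint medians were -0.03, 0.03 and 0.08 for the 3 lists in PRMT1i and 0.06, 0.12 and 0.05 in PRMT4i.

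The list of other elongation, termination and recycling factors had 13 of 14 genes tested. In PRMT1i footprints its median was -0.26, 5 of 13 were past 0.32 below and none above, against 16.3% and 21.3% of all tested genes. GSPT1, the release factor eRF3a, was at -0.59 and ETF1, the release factor eRF1, at -0.43. EIF5A, which helps the ribosome through proline stretches, had inputs of 608, 406 and 344 TPM, at -0.42 and -0.45 on the centred scale. EEF1A2, the paralog of EEF1A1 found in neurons and muscle, had footprints of 138, 96.8 and 143 TPM, with ratios of -0.36 and 0.07, where EEF1A1 had -0.02 and -0.09. ABCE1, the factor that splits the ribosome after termination, was at -0.45 in translation efficiency in PRMT1i and 0.78 in PRMT4i, but at 0.26 and 0.06 with the inputs exchanged.

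Other nascent chain factors were tested for 14 of 16 genes. Their translation efficiency had a median of -0.25 in PRMT1i, with 12 of 14 below 0, and 0.30 in PRMT4i, with 12 of 14 above 0 (NACA and BTF3 were at 0.03 and 0.19, and at 0.17 and 0.38). NAA15, the anchor subunit of the N-terminal acetyltransferase NatA, was at -1.05 and 0.34, and the ribosome-binding SERBP1 at -0.64 and 0.45. These directions rest on the pairing of labels. With the inputs exchanged the list had medians of 0.04 and -0.10, with NAA15 at -0.44 and -0.28 and SERBP1 at -0.04 and -0.16. In input in PRMT4i the list had a median of -0.27, with SERBP1 at -0.72 and METAP2, a methionine aminopeptidase, at -0.50. BTF3L4, the paralog of BTF3, went from 20.2 TPM in the DMSO input to 12.5 TPM in the PRMT4i input, a ratio of -0.29 beside -0.33 for BTF3.

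**Figure D4:**
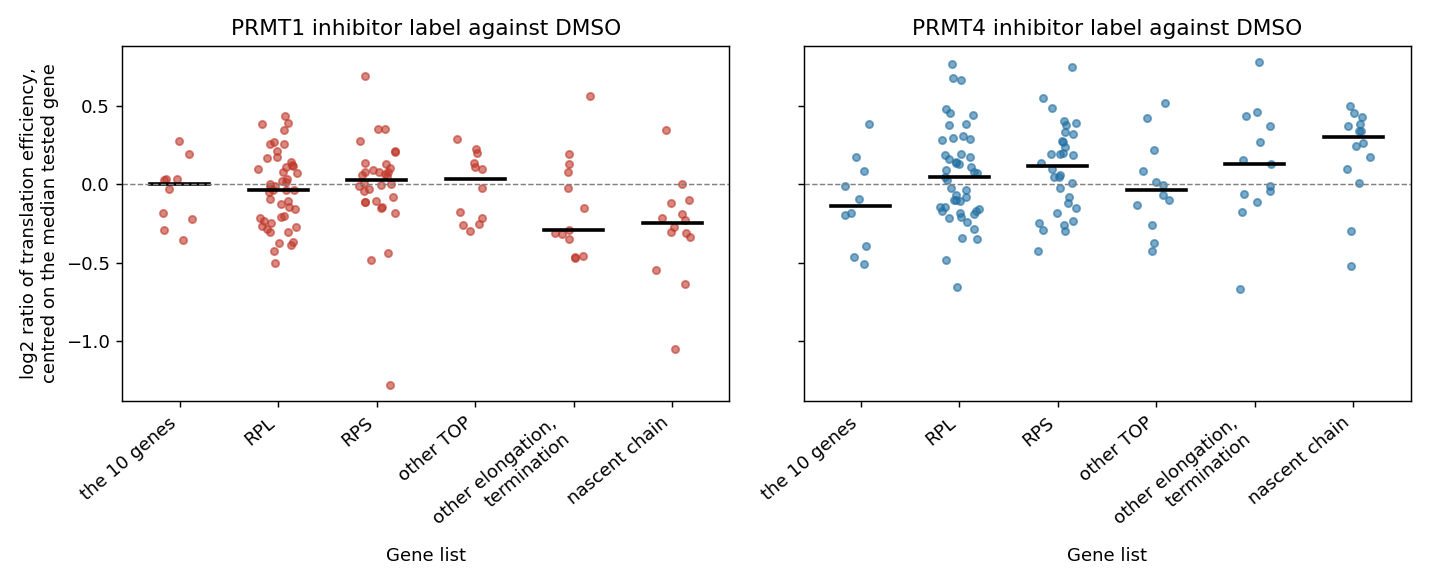
Log2 ratio of translation efficiency to DMSO for the genes of 6 lists, centred on the median of all tested genes, with 1 point per gene, horizontal scatter for legibility and a bar at each median. The 10 genes (medians -0.00 and -0.14), large subunit (RPL), small subunit (RPS) and other TOP messages lie around 0, and the nascent chain list lies at -0.25 on the left and 0.30 on the right with the input of the same label as plotted, or at 0.04 and -0.10 with exchanged inputs.

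Genes that control TOP messages were measured by the same libraries. All 22 listed genes of the mTORC1 and LARP1 branch were tested. LARP1 itself stood at 74.6, 63.7 and 56.7 TPM in input, with 35.7, 27.7 and 28.9 TPM in footprints, with footprint ratios of -0.21 and -0.29. EIF4EBP1, the mTORC1-regulated repressor of the cap-binding protein, stood at 83.1, 53.8 and 74.3 TPM in input, with 72.8, 87.8 and 55.3 TPM in footprints. Its translation efficiency was the highest of the list in PRMT1i (0.87), and that of TSC2, an inhibitor of mTORC1, the lowest in PRMT4i (-1.32). With the inputs exchanged, EIF4EBP1 was at 0.19 in PRMT1i and TSC2 at -0.45 in PRMT4i. DDIT4, a stress-induced inhibitor of mTORC1, had ratios of -0.99 and -0.12 in input and -0.26 and -0.88 in footprints. In translation efficiency the list had medians of 0.17 and -0.23, with 9 of 22 past 0.32 below and 2 above in PRMT4i, against 20.2% and 17.1% of all tested genes. With the inputs exchanged the medians were -0.04 and -0.05, and 2 of 22 were past it below in PRMT4i and none above, against 10.3% and 8.73%.

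Enzymes that modify the elongation factors were tested for 13 of 16 listed genes, with translation efficiency medians of 0.11 and 0.06, or -0.05 and 0.02 with the inputs exchanged. EEF2K, the kinase that inactivates eEF2, stood at 14.6, 10.8 and 9.23 TPM in input, with 9.24, 7.46 and 7.28 TPM in footprints. METTL13, which methylates eEF1A, stood at 26.3, 17.4 and 13.2 TPM in the inputs, with ratios of -0.41 and -0.58.

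Some of the 10 genes carry small nucleolar RNAs (snoRNAs), which guide the modification of ribosomal RNA and are released from the introns of their hosts. By position in GENCODE release 29, RACK1 holds SNORD95 and SNORD96A, EEF2 holds SNORD37, EEF1B2 holds SNORD51 and SNORA41, and TPT1 holds SNORA31B. SNORA31 inside TPT1 and RF00134 inside EEF1B2 are annotated as well but had no values in these libraries. In the footprint libraries SNORD95 stood at 55.5, 612 and 85.2 TPM, while its host RACK1 stood at 6602, 6466 and 6142 TPM. SNORD96A stood at 4.13, 34.2 and 8.87 TPM. SNORD37 stood at 6.16, 49.7 and 6.88 TPM, and its host EEF2 at 1765, 1522 and 1588 TPM. SNORD51 stood at 4.65, 42.6 and 8.11 TPM, and its host EEF1B2 at 464, 464 and 529 TPM.

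The centred footprint ratios in PRMT1i were 3.59 for SNORD95, 2.92 for SNORD96A, 2.97 for SNORD37 and 3.09 for SNORD51, against 0.12, -0.07 and 0.15 for the hosts RACK1, EEF2 and EEF1B2. For snoRNAs these ratios describe levels in the PRMT1i footprint library, and whether ribosomes protected those fragments was not tested. SNORD96A and SNORD51 reached the minimum of 5 TPM only through that library, with means of 4.27 and 3.92 TPM over the other 5, so their ratios had to be high; SNORD95 and SNORD37 reached it without that library. Of tested genes, 3.25% were at least 2-fold higher in that comparison. Of snoRNA genes with a mean of at least 5 TPM over the other 5 libraries as well, 111 of 146 were, against 3.07% of all genes so filtered, and the host messages were not. In input, SNORD95 stood at 44.2, 23.7 and 58.8 TPM and SNORD37 at 9.01, 8.30 and 12.2 TPM. SNORA31B was listed at 0 in every footprint library and stood at 7.83, 12.8 and 19.8 TPM in the inputs. SNORA41 stayed below 5 TPM in all 6 libraries.

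**Figure D5:**
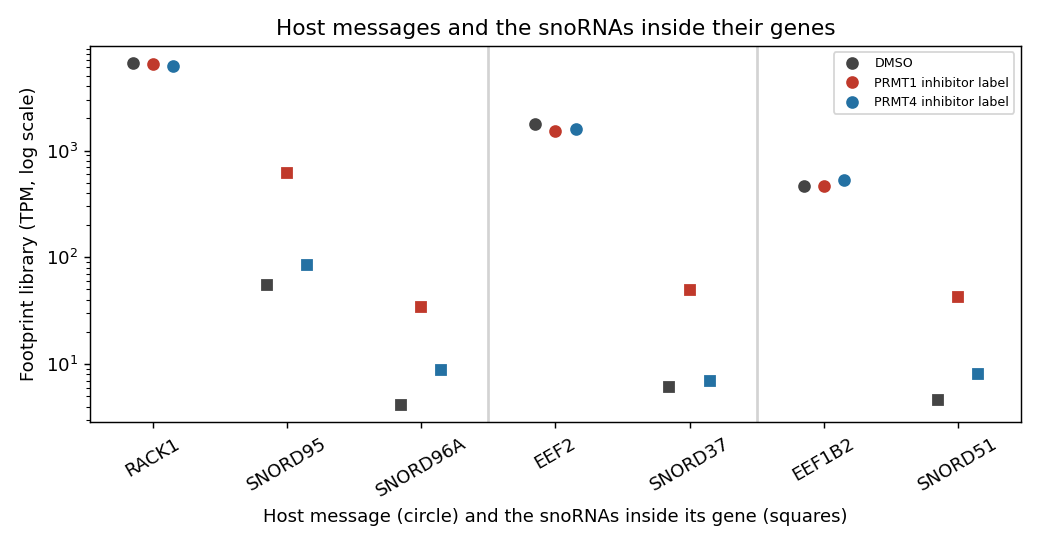
Level in the 3 footprint libraries, in TPM on a log scale, coloured by treatment label, with each symbol 1 library. Circles are RACK1, EEF2 and EEF1B2, and squares are 4 of the snoRNAs inside their genes. These 4 snoRNAs have their highest value in PRMT1i, from 34.2 to 612 TPM, and the 3 hosts do not. SNORD96A and SNORD51 passed the filter on low values only through that library. SNORA41, inside EEF1B2 and below the filter, is not shown and stood at 0.4, 1.08 and 1.22 TPM.

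To ask which genes had a profile like that of the 10, log2(TPM + 1) over the 6 libraries was centred per gene and the Euclidean distance to the median profile of the 10 was taken for 3596 other protein-coding genes with a mean of at least 20 TPM. The nearest were PSMC2, a proteasome ATPase (distance 0.08), the RNA-binding PRKRA (0.08), the zinc finger gene ZNF195 (0.10) and TTC4 (0.10), followed by COMMD6, GHITM, NUP54, FAM136A, G2E3 and ISCU. None of these 10 was a ribosomal protein, but the lists hold only 47 and 32 such genes beside 3596 candidates. That count is therefore not a result about the members. Among the members themselves EEF1B2 (0.20) and NACA (0.23) were nearest to the median profile and BTF3 (2.12) farthest. The closest pairs were EEF1A1 with TPT1 (0.30), EEF1G with EEF2 (0.32) and EEF1D with RACK1 (0.34). Such distances rest on 6 libraries and mostly on the step between input and footprints.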

How the data were processed

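The deposited table held TPM computed by the authors, 1 column per library and printed to 2 decimals. Tools and build, per the submitters' processing notes, which assign no role or order, were RSEM 1.2.22, STAR 2.4.2a, Bowtie 1.1.2 and cutadapt 1.18 with GRCh37.p13. Footprints came from RNase I digestion and monosome fractions of sucrose gradients, per the labels' protocols, while the selection of the input RNA is not stated there. TPM keeps no depth, so depth is unknown and no counting interval was possible.

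Of 60461 rows, 41 pseudoautosomal Y copies, all at 0, were dropped. Symbols were found for 55725 of the other 60420 identifiers, and gene types came from GENCODE release 29, which is on a later build and served for names, types and which snoRNAs lie inside a gene. Ratios used a pseudocount of 1, which understates changes of low genes, genes with a mean of at least 5 TPM (9040, of which 8117 were protein-coding) and centring on their median. Calculations used Python 3.11.15, numpy 2.4.6, pandas 2.3.3 and matplotlib 3.10.9 and were tested on simulated data. Genes past a log2 ratio of 0.32 were counted beside the same share of all tested genes.

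The 10 members and the 13 gene lists were chosen with earlier results of these data known. All members were named. From each list at most the 2 highest and 2 lowest tested genes of a comparison were named; LARP1 falls outside this rule and was named for its role. Nearest genes were the 10 with the smallest distance. For the gene lists, the exchange of inputs and the snoRNA filter without the PRMT1i footprint library were chosen after seeing the data.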

Additional observations from a re-analysis of the deposited data

Results flagged for a closer look

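For 3 of the genes, the 2 inhibitor labels lay on opposite sides of DMSO and at least 0.32 apart on the log2 scale. None of these differences could be tested with 1 library per label, and both labels share the DMSO libraries. In input, EEF2 had centred log2 ratios of -0.10 under the PRMT1 label and 0.35 under the PRMT4 label, and NAP1L1 had 0.18 and -0.16. In translation efficiency, EEF2 had 0.026 and -0.51, and RACK1 had 0.28 and -0.10. In translation efficiency the opposite sides were lost with the inputs exchanged, where EEF2 was at -0.44 and -0.06 and RACK1 at 0.11 and 0.06, and for RACK1 also without centring, at 0.30 and 0.28. Without centring, EEF2 in translation efficiency was at 0.04 and -0.14, on opposite sides but less than 0.32 apart. In input EEF2 was then at -0.26 and -0.01, both below 0.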

How the results depend on the processing

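No paired analysis was possible because each group had 1 library. Processed copies added, other pseudocounts, a centre of protein-coding genes, protein-coding genes alone (chosen after seeing the data) and exchanged inputs left each median of the 10 genes within 0.1. Without centring, the medians were -0.13 and -0.27 for input (PRMT1, then PRMT4 label), -0.13 for footprints labelled PRMT1 inhibitor, 0.23 for translation efficiency under the PRMT4 label, 0.23 and -0.077 between the labels in input and footprints, and 0.36 for the level in DMSO. With no filter they were -0.12, -0.25, -0.13, 0.20, 0.21, -0.077 and 0.40. The DMSO level was also 0.51 at a minimum of 1 TPM, -0.14 at 20 TPM and -0.34 after rescaling to nuclear protein-coding genes, which put footprints labelled PRMT1 inhibitor at 0.12. NACA in that level reversed, to -0.042 at 20 TPM and -0.24 after rescaling, as did EEF2 in the input labelled PRMT4 inhibitor without centring, -0.015. The cause was not tested.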
